A study of Mus musculus with 8 samples.

Results

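The myostatin, GDF11 and follistatin axis was followed here as 10 genes listed by symbol, a choice made with earlier results of these data known. They were the ligands Mstn and Gdf11, the secreted follistatin and follistatin-like genes Fst, Fstl3 and Fstl1, and the receptors Acvr2a, Acvr2b and Acvr1b. The intracellular members were Smad3, a signal transducer, and Smad7, an inhibitory Smad. All 10 had a row among the 54532 genes of each count table. Quadriceps RNA came from mice 3 months old on chow diet, read by 3′ mRNA sequencing, in which reads start near the end of the polyadenylated transcript. Both groups carried Gpcpd1 Flox/Flox alleles: the 4 control libraries came from mice negative for Mck Cre, and the 4 knockout libraries (labelled MckCre Gpcpd1) from mice positive for it. Mck Cre is a Cre recombinase driven by the muscle creatine kinase promoter, so it acts in muscle fibres and leaves Gpcpd1 in the other cells of the tissue. Because the controls had no Cre, the presence of Cre and the loss of Gpcpd1 cannot be told apart. The labels do not say that each library is a different mouse, so p-values measure the spread between libraries.

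Myostatin is a muscle-made member of the TGF-beta family that restrains muscle mass, and GDF11 is its closest relative. Both are released as latent precursors, bind the activin type II receptors ACVR2A and ACVR2B with type I partners such as ACVR1B, and signal through SMAD2 and SMAD3, while SMAD7 is an inhibitor that the pathway itself induces. Follistatin (Fst) and follistatin-like 3 (Fstl3) bind these ligands outside the cell and block them, and follistatin-like 1 (Fstl1) is a more distant secreted relative.

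Library totals ran from 4404116 to 5405999 reads. Levels are given as CPM, the usual count per unit of library size, after TMM scaling of the library totals. A floor of 3 reads corresponds to 0.555 to 0.681 CPM of the library totals before TMM scaling and covers counting error only. Gpcpd1, the targeted gene, had 149.7 ± 10.7 CPM in control libraries against 35.1 ± 3.45 CPM in knockout libraries (SD, n = 4 each) and was called lower (edgeR adjusted p = 2.1e-13). Which exons were floxed is not stated in the labels, so 3′ reads check the labels without showing the deletion itself. The 8 listed muscle fibre markers, led by Myh4, Acta1 and Ttn, summed to between 160816 and 178923 CPM in controls and between 173823 and 180365 CPM in knockouts. The defining fibre transcripts were thus abundant in every library; Acta1 and Mylpf were called higher and Myh4 lower among them.

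Promoters are shown for Mstn and for the 2 members that passed the test below, Gdf11 and Fstl3. Each runs from 250 bases before to 50 bases after the RefSeq start site (GRCm38.p6), 5′ to 3′ on the gene's strand. Capitals mark the E-box CANNTG, the motif bound by myogenic basic helix-loop-helix factors, which reads the same on both strands. The positions are chr1:53061390-53061689 on the plus strand for Mstn, chr10:128891669-128891968 on the minus strand for Gdf11 and chr10:79777024-79777323 on the plus strand for Fstl3.
Mstn: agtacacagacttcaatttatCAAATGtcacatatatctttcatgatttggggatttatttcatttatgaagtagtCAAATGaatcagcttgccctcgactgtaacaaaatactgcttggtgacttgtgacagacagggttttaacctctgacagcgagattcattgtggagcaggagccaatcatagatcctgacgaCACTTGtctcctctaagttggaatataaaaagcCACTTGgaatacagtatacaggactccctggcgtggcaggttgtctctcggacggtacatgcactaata
Gdf11: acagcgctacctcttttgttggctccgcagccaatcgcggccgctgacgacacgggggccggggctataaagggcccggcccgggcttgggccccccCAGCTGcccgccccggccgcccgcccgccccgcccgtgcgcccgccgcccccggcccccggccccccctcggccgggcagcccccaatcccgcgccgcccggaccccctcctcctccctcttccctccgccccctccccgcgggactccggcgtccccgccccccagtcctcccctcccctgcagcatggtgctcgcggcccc
Fstl3: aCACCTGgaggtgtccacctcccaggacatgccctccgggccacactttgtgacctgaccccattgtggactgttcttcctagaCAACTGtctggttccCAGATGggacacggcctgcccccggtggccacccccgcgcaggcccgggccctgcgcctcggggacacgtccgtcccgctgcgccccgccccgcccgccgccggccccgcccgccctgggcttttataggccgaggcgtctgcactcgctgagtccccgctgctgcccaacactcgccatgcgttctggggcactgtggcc

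The Mstn window held 4 E-boxes, the Fstl3 window 3 and the Gdf11 window 1. At least 1 E-box occurred in 72.3% of the 32851 promoter windows of this length, so its presence is common. The Smad-binding element CAGAC, searched on both strands, had 2 matches in Mstn, 2 in Fstl3 and 0 in Gdf11, against 49.6% of all windows with at least 1; one of the Fstl3 matches shares its first base with the last base of an E-box. The TATA box TATAAA, also searched on both strands, had its match 29 bases before the start site in Mstn and, on the other strand, in Fstl3, and 185 bases before it in Gdf11, and occurred in 13.6% of all windows. The Mstn window was 41.3% G and C, whereas the Gdf11 window was 80.7% and the Fstl3 window 70.7%. Windows were also at hand for Fstl1, Acvr1b, Acvr2a, Acvr2b and Smad3, among which an E-box was found in Acvr1b alone. These matches describe letters in the windows and say nothing of which factors bind.

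Among the 10 members, Gdf11 fell and Fstl3 rose in knockout muscle, and no other member passed the test. The test was edgeR's quasi-likelihood F test over 10691 genes that passed a low-count filter, with an adjusted p of 0.05 as threshold. Over all tested genes 15.7% were called, 8.87% higher and 6.8% lower in the knockout. Of the members, 9 were tested, 1 was called higher, 1 lower and 7 in neither direction. Fst did not pass the filter, and Fstl3 passed it only through the knockout libraries, since 4 knockouts but 1 control reached the level it asks for, so the count over tested members supports no statement on the axis as a whole. The median log2 fold change was -0.14 over the tested members and 0.01 over all tested genes, and with no filter it was -0.16 over all 10 members. Groups did not overlap for 2 tested members, Gdf11 and Fstl3, against 19.2% of all tested genes.

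**Figure D1:**
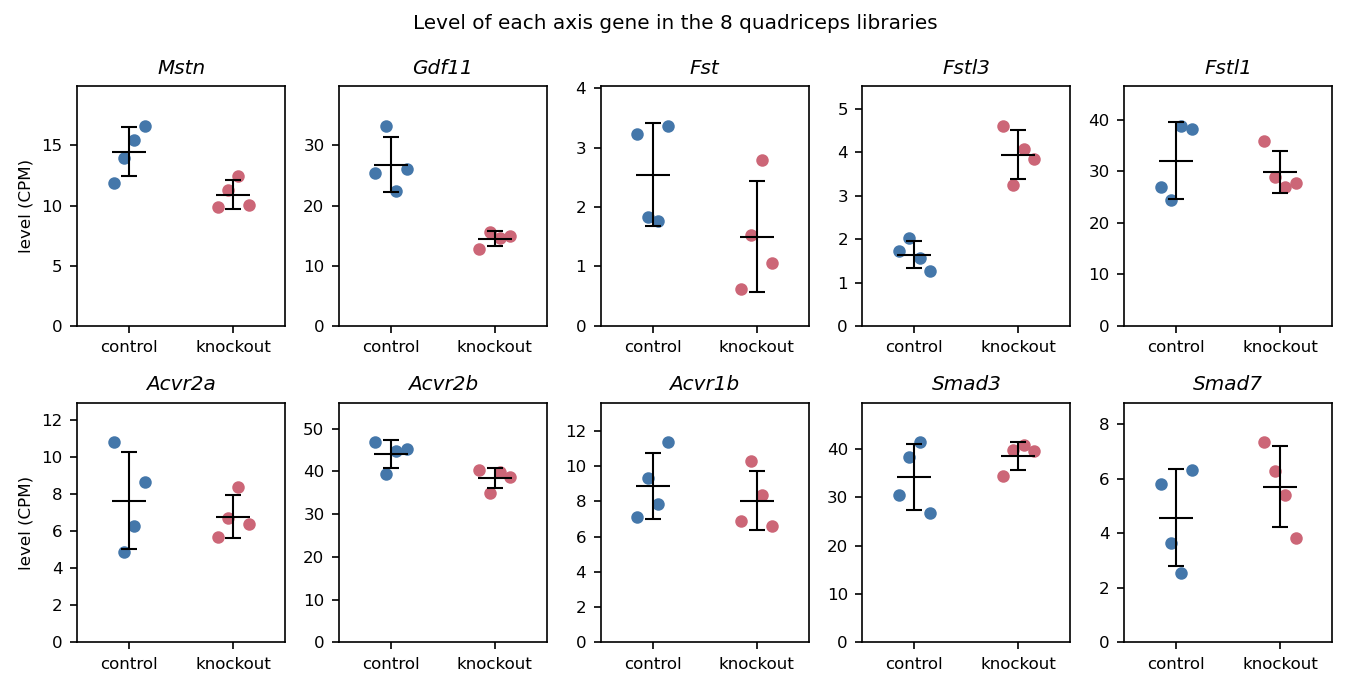
Level of the 10 axis genes in CPM (vertical axes, each from 0) in the 4 control libraries (blue) and the 4 knockout libraries (red), 1 point per library, with the mean as a bar and the SD as whiskers. The groups are apart for Gdf11 (controls from 22.5 CPM, knockouts up to 15.7 CPM) and for Fstl3 (controls up to 2.03 CPM, knockouts from 3.25 CPM), and they overlap for the other 8 genes.

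Gdf11 (ENSMUSG00000025352, GRCm38 chromosome 10, 128882295 to 128891718, minus strand), the second ligand of the axis, stood at 25.4, 33.2, 22.5 and 26.1 CPM in controls 1 to 4. In knockouts 1 to 4 it stood at 12.8, 15.7, 14.7 and 14.9 CPM. Every knockout library lay below every control library, and the knockouts were also closer to each other, with a coefficient of variation of 8.46% against 17.0% in controls. Mean Gdf11 fell from 26.8 ± 4.56 CPM to 14.5 ± 1.23 CPM (SD, n = 4 each), which left 54.1% of the control level. The log2 fold change was -0.88 (SE 0.14, 95% interval -1.17 to -0.60, edgeR adjusted p = 7.3e-05), resting on 521 reads in controls and 292 in knockouts. Permuting the 8 levels gave p = 0.0286 (exact, two-sided), the smallest value that 4 against 4 libraries allow. No annotated gene overlapped Gdf11, and the fall was called in 17 of 17 alternative analyses.

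Mstn (ENSMUSG00000026100, GRCm38 chromosome 1, 53061640 to 53068079, plus strand), which encodes myostatin, was the less abundant of the ligands in every library. Controls 1 to 4 held 11.8, 14.0, 15.5 and 16.6 CPM of Mstn. Knockouts 1 to 4 held 9.85, 11.3, 12.4 and 10.0 CPM. All 4 knockouts were below the control mean, but control 1 lay below knockout 3, so the groups overlapped. The means were 14.5 ± 2.05 and 10.9 ± 1.21 CPM (SD, n = 4 each), with a log2 fold change of -0.41 (SE 0.16, 95% interval -0.73 to -0.08). This difference had an unadjusted p of 0.0157 and an adjusted p = 0.0813 in edgeR, so it was not called, and the exact two-sided permutation test gave p = 0.0571. The direction of the Mstn difference was the same whichever library was left out (log2 fold change -0.49 to -0.34), but whether it was called depended on control 1, without which the edgeR adjusted p = 0.0451. In control muscle 49.8% of tested genes had a higher mean than Mstn, which places it near the middle of the expressed genes.

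The ratio of Gdf11 to Mstn within a library does not depend on the scaling of library totals, and since reads come from transcript ends it needs no length correction by design. In controls 1 to 4 the ratio was 2.15, 2.38, 1.46 and 1.57, and in knockouts 1 to 4 it was 1.30, 1.39, 1.18 and 1.49. The highest knockout lay above the lowest control. On the log2 scale the mean ratio was 0.89 ± 0.34 in controls and 0.42 ± 0.14 in knockouts (SD, n = 4 each), a difference of -0.47 with an exact two-sided permutation p = 0.0571 (0.0857 after adjustment over the 3 ratios examined, which were chosen after the levels had been seen). With 4 against 4 libraries, a single ratio at the smallest possible p of 0.0286 among 3 is also adjusted to 0.0857, so the adjusted value could not have passed on this ratio alone. The unadjusted p also missed the threshold, which does not show that the ligands differed by the same factor. Summed, the ligands ran from 37.3 to 47.2 CPM in controls and from 22.6 to 27.1 CPM in knockouts.

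**Figure D2:**
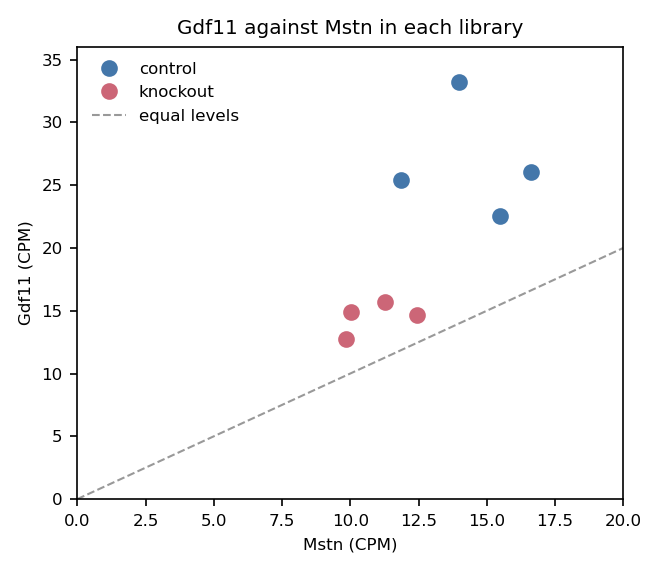
Gdf11 (vertical axis, CPM) against Mstn (horizontal axis, CPM) in each of the 8 libraries, controls in blue and knockouts in red, with a dashed line where both levels would be equal. All 8 libraries lie above the line; the knockouts, with ratios of 1.18 to 1.49, lie nearer to it than the 2 controls with ratios above 2.

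Fstl3 (ENSMUSG00000020325, GRCm38 chromosome 10, 79777272 to 79782630, plus strand), a secreted antagonist of activin and myostatin, was the least abundant member in controls. Controls 1 to 4 had 8, 10, 8 and 6 reads, or 1.72, 2.03, 1.57 and 1.26 CPM. Knockouts 1 to 4 had 22, 17, 22 and 18 reads, or 4.61, 3.25, 4.09 and 3.84 CPM. All knockouts were above all controls. Mean Fstl3 rose from 1.64 ± 0.319 CPM to 3.95 ± 0.566 CPM (SD, n = 4 each). Its log2 fold change was 1.25 (SE 0.30, 95% interval 0.63 to 1.86, edgeR adjusted p = 0.0046). With no low-count filter, where its entry does not depend on the knockouts, Fstl3 had a log2 fold change of 1.23 (edgeR adjusted p = 0.0060). Prss57, on the opposite strand, overlaps the 3′ end of Fstl3 in the annotation and had at most 1 read in a library. Without a known strand setting, how reads in the shared stretch were counted is not known, so the Fstl3 count is uncertain too. With 32 reads in all controls together, the size of the rise is loosely fixed, as the interval shows.

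Fst (ENSMUSG00000021765, GRCm38 chromosome 13, 114452290 to 114458951, minus strand), which encodes follistatin, a secreted blocker of activins and myostatin, was near the limit of detection. Controls 1 to 4 had 15, 9, 9 and 16 reads, and knockouts 1 to 4 had 3, 8, 15 and 5. Knockout 1 was at the floor of 3 reads, and knockout 3 had more reads than controls 2 and 3, so the groups overlapped. Levels ran from 1.76 to 3.36 CPM in controls and from 0.628 to 2.79 CPM in knockouts. In the fit with no filter the log2 fold change of Fst was -0.73 (SE 0.38, 95% interval -1.48 to 0.02, edgeR adjusted p = 0.317). No difference in Fst was detected, and the interval runs from 0.359 to 1.02 times the control level.

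Fstl1 (ENSMUSG00000022816, GRCm38 chromosome 16, 37776873 to 37836514, plus strand) encodes a secreted glycoprotein known from stromal cells and from muscle. Of the 3 follistatin and follistatin-like genes it was the most abundant. It stood at 26.9, 24.3, 38.8 and 38.3 CPM in controls 1 to 4 and at 35.8, 28.8, 26.9 and 27.7 CPM in knockouts 1 to 4. Controls 3 and 4 and knockout 1 were high and the others low, whatever the genotype. The log2 fold change was -0.11 (SE 0.14, 95% interval -0.41 to 0.19, edgeR adjusted p = 0.679). Beside it, the summed level of the 10 fibroblast and fibro-adipogenic progenitor markers, led by Gsn, Dcn and Pi16, was 1150 to 1381 CPM in controls and 852.2 to 1143 CPM in knockouts, with 2 of 10 markers lower and 0 higher. The 7 macrophage markers, led by C1qa, Csf1r and Cd163, summed to 66.1 to 111.2 CPM in controls and 49.7 to 79.7 CPM in knockouts, with 3 of 6 tested markers lower. The part of these cells in the values of the axis genes was not tested, and in whole-muscle RNA fewer cells of a type and less RNA per cell cannot be told apart. No tested endothelial, satellite cell, smooth muscle, adipocyte, Schwann cell or tendon marker was called. The low-count filter kept 3 of 5 satellite cell markers and 3 of 5 tendon markers. No marker of any list was at 0 in all libraries.

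The ratio of Fstl3 to Fstl1 within a library was 0.0330 to 0.0833 in controls and 0.113 to 0.152 in knockouts, with no overlap. The difference was 1.36 on the log2 scale (exact two-sided permutation p = 0.0286, the smallest possible, and 0.0857 adjusted over the 3 ratios). This ratio too was chosen after the levels had been seen. Since Fstl1 was not called, it largely repeats the rise of Fstl3 and is no further result. Fst and Fstl3 together, the secreted members that bind and block myostatin, summed to 3.33 to 4.95 CPM in controls and 4.77 to 6.87 CPM in knockouts, so the sums overlapped.

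The receptors showed no called difference. Acvr2b (ENSMUSG00000061393, GRCm38 chromosome 9, 119402118 to 119434995, plus strand), the type II receptor for which myostatin has high affinity, had the highest control mean of the 10 members. Its level was 46.7, 39.3, 44.8 and 45.2 CPM in controls 1 to 4 and 40.2, 34.9, 39.9 and 38.6 CPM in knockouts 1 to 4. Control 2 lay below knockouts 1 and 3 and the other controls above all knockouts. The log2 fold change was -0.20 (SE 0.10, 95% interval -0.40 to 0.01, edgeR adjusted p = 0.204), the narrowest interval among the members. An antisense gene, Gm47320, lies within Acvr2b and had 8 to 28 reads, and no source used here gives the strand setting of the counting.

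Acvr2a (ENSMUSG00000052155, GRCm38 chromosome 2, 48814109 to 48903269, plus strand), the related type II receptor, stood at 10.8, 4.86, 6.27 and 8.62 CPM in controls 1 to 4. Knockouts 1 to 4 stood at 5.66, 6.68, 8.36 and 6.40 CPM. The controls enclosed the knockouts on both sides. The log2 fold change was -0.16 (SE 0.23, 95% interval -0.62 to 0.31, edgeR adjusted p = 0.705), and without control 1 it was 0.05. The last bases of Acvr2a overlap the end of Orc4 on the opposite strand, which had 33 to 59 reads. Without a known strand setting the Acvr2a count is therefore uncertain. Acvr2b exceeded Acvr2a by 4.34 to 8.08 times in controls and 4.78 to 7.11 times in knockouts (exact two-sided permutation p = 0.743). Acvr1b (ENSMUSG00000000532, GRCm38 chromosome 15, 101174067 to 101213684, plus strand), the type I receptor also called ALK4, ranged from 7.11 to 11.3 CPM in controls and from 6.61 to 10.3 CPM in knockouts. Its log2 fold change was -0.14 (SE 0.20, 95% interval -0.54 to 0.27, edgeR adjusted p = 0.702).

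Of the intracellular members, Smad3 (ENSMUSG00000032402, GRCm38 chromosome 9, 63646767 to 63757994, minus strand), which carries the signal to the nucleus, stood at 30.4, 38.3, 41.3 and 26.7 CPM in controls 1 to 4. Knockouts 1 to 4 stood at 34.4, 39.7, 40.9 and 39.5 CPM. All 4 knockouts were above the control mean, but controls 2 and 3 were as high, so the groups overlapped. The log2 fold change was 0.17 (SE 0.12, 95% interval -0.08 to 0.43, edgeR adjusted p = 0.390). Smad7 (ENSMUSG00000025880, GRCm38 chromosome 18, 75367529 to 75395935, plus strand), the inhibitory Smad, ranged from 13 to 30 reads in controls and from 18 to 35 reads in knockouts. Its means were 4.58 ± 1.78 and 5.72 ± 1.48 CPM (SD, n = 4 each), with a log2 fold change of 0.33 (SE 0.27, 95% interval -0.23 to 0.89, edgeR adjusted p = 0.460). No difference in Smad7 was detected, and the interval reaches up to 1.85 times the control level.

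**Figure D3:**
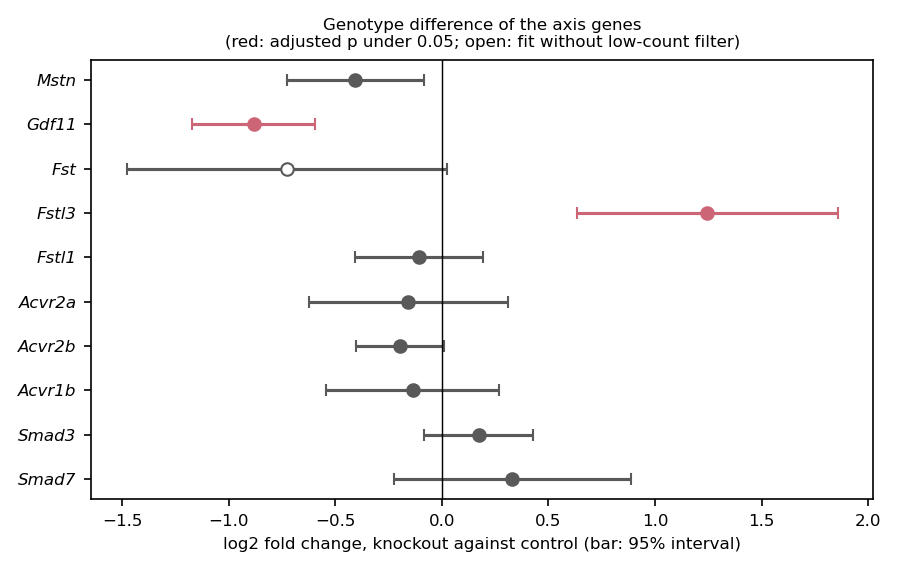
Log2 fold change, knockout against control (horizontal axis), of the 10 axis genes with its 95% interval as a bar; red marks an adjusted p under 0.05, and the open point for Fst comes from the fit with no low-count filter. Gdf11 at -0.88 and Fstl3 at 1.25 are the called genes; the interval of Mstn, at -0.41, also lies below 0 but its adjusted p of 0.0813 was above the threshold.

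Ordered by control level, the members ran Acvr2b, Smad3, Fstl1, Gdf11, Mstn, Acvr1b, Acvr2a, Smad7, Fst and Fstl3. Control libraries of neighbours in this order overlapped in all pairs but Gdf11 with Mstn and Mstn with Acvr1b. In knockouts the order was kept except that Smad3 and Acvr2b changed places at the top and Fstl3 and Fst at the bottom. The knockout libraries of Fstl3 and Fst did not overlap, whereas those of Smad3 and Acvr2b did.

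Likeness of log2 level over the 8 libraries was ranked among tested protein-coding genes, without predicted Gm, Rik or pseudogene names. The genes most like Gdf11 were Tmem37 (Pearson r = 0.99), Mylk2, a muscle myosin light chain kinase (0.99), and Rabgef1 (0.99). All 3 were themselves lower in knockouts, Tmem37 at a log2 fold change of -1.10, Mylk2 at -0.69 and Rabgef1 at -0.44. For Mstn they were Rsrc2 (0.98), Cask (0.97) and Eif1b (0.96), with log2 fold changes of -0.15, -0.34 and -0.19 that did not pass the test. These are the highest of many correlations over 8 libraries that share 1 genotype contrast, and they are given as a description only.

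Beyond the 10 members, 116 other genes of TGF-beta family signalling were listed by role, also with earlier results of these data known, and 70 were tested. Of these, 4 were higher and 14 lower in knockouts (25.7% called against 15.7% of all tested genes), with a median log2 fold change of -0.12 against 0.01 for all tested genes. The number higher was 2 without control 3 or without knockout 4. As with the members, each list is described and not tested as a set.

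Among other ligands 1 of 9 tested genes was called, Tgfb2, which encodes a TGF-beta and stood at 50.3 ± 3.09 CPM in controls and 61.9 ± 3.67 CPM in knockouts (SD, n = 4 each). Its log2 fold change of 0.30 (SE 0.09) had an edgeR adjusted p = 0.0269. That call ended without control 1 (0.0710), control 3 (0.0807), control 4 (0.0674), knockout 1 (0.0666) or knockout 4 (0.0972), in DESeq2 (0.0670) and with no low-count filter (0.0806), all as adjusted p. Inhba, which encodes the activin A subunit, had a log2 fold change of 0.43 (SE 0.26) and was not called. In propeptide processing and latency 1 of 9 was called: Furin, the protease that cleaves the precursors of myostatin and its relatives, fell from 138.3 ± 11.2 CPM to a mean of 99.0 ± 7.75 CPM, or by 0.48 on the log2 scale (SE 0.09, edgeR adjusted p = 4.1e-04). Every knockout was below every control for Furin.

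In the list of extracellular antagonists and co-receptors 4 of 9 were lower and 0 higher. Wfikkn2, also called GASP-1, a secreted protein that binds myostatin and GDF11 with high selectivity, stood at 8.40, 8.92, 8.03 and 8.41 CPM in controls 1 to 4 and at 4.82, 4.58, 3.90 and 1.28 CPM in knockouts 1 to 4. All knockouts were below all controls and knockout 4 was the lowest. The log2 fold change of Wfikkn2 was -1.19 (SE 0.25, edgeR adjusted p = 0.0018). Hjv, a muscle-rich BMP co-receptor known from iron metabolism, fell from a control mean of 1160 ± 77.8 CPM to 880.7 ± 19.1 CPM (log2 fold change -0.40, SE 0.08). Dcn, the proteoglycan decorin and also a fibroblast marker, had a log2 fold change of -0.27 (SE 0.09), and Rgmb, another BMP co-receptor, -0.33 (SE 0.11). The call of Dcn ended without control 3 (edgeR adjusted p = 0.125), control 4 (0.0650), knockout 3 (0.0572) or knockout 4 (0.149). The call of Rgmb ended in 10 of 17 alternatives, among them DESeq2 (adjusted p = 0.0789), limma voom (0.0561) and thinned libraries (0.0652), and without any library but control 4 (edgeR adjusted p up to 0.124). The list held 2 lower genes without control 3, knockout 3 or knockout 4.

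Of the other receptors 1 of 8 was called: Bmpr2, the BMP type II receptor, fell from a control mean of 104.2 ± 9.31 CPM to 78.0 ± 8.47 CPM (log2 fold change -0.42, SE 0.09, edgeR adjusted p = 0.0032), with no overlap of the groups. Tgfbr1, the type I receptor also used by myostatin, had a log2 fold change of -0.12 (SE 0.16) and was not called, and Acvr1c did not pass the filter. Among Smads and their regulators 5 of 17 were lower and 0 higher. Smad2, the partner of Smad3 downstream of myostatin, stood at 9.91, 7.91, 7.24 and 9.04 CPM in controls 1 to 4. In knockouts 1 to 4 it stood at 3.98, 3.82, 5.20 and 5.55 CPM. All knockouts were below all controls, and the log2 fold change of Smad2 was -0.87 (SE 0.21, edgeR adjusted p = 0.0044).

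Ppm1a, a phosphatase reported to remove the activating phosphates of SMAD2 and SMAD3, fell from a control mean of 388.3 ± 28.4 CPM to 248.4 ± 13.7 CPM (log2 fold change -0.64, SE 0.08, edgeR adjusted p = 5.1e-06). Smad5, a BMP-branch Smad, had a log2 fold change of -0.36 (SE 0.09), Map3k7, the TGF-beta activated kinase TAK1, -0.38 (SE 0.08), and Fkbp1a, which binds type I receptors and also the muscle calcium release channel, -0.32 (SE 0.09). These 3 were called lower, and the call of Fkbp1a ended without knockout 2 (edgeR adjusted p = 0.0607).

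Of 18 tested genes reported as Smad targets 3 were higher and 3 lower. Cdkn1a, a cell cycle inhibitor with many other regulators, rose from 8.21 ± 1.22 to 19.8 ± 4.80 CPM and Hes1, also a Notch target, from 14.9 ± 2.65 to 29.1 ± 1.07 CPM (SD, n = 4 each). Ccn2, a classical TGF-beta target of fibroblasts, had a log2 fold change of 0.96 (SE 0.28, edgeR adjusted p = 0.0227) with overlapping groups. Its call ended without control 2 (0.0666), control 3 (0.0787), knockout 2 (0.0617), knockout 3 (0.0850) or knockout 4 (0.0549). Pmepa1, a feedback inhibitor induced by TGF-beta, fell from a control mean of 77.0 ± 7.44 CPM to 46.1 ± 8.52 CPM (log2 fold change -0.74, SE 0.11, edgeR adjusted p = 5.4e-05), and Fn1, fibronectin, had -0.52 (SE 0.13). Tgfbi, at -0.46 (SE 0.16, edgeR adjusted p = 0.0428), was called in 9 of 17 alternatives; its adjusted p rose to 0.0788 in DESeq2 and 0.0617 in limma voom, and to 0.0589 to 0.128 without control 2, control 3 or any 1 of the knockouts. Targets of the pathway thus moved in both directions, and the BMP targets Id1, Id2 and Id3 were not called, with log2 fold changes of -0.06, 0.01 and 0.23.

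**Figure D4:**
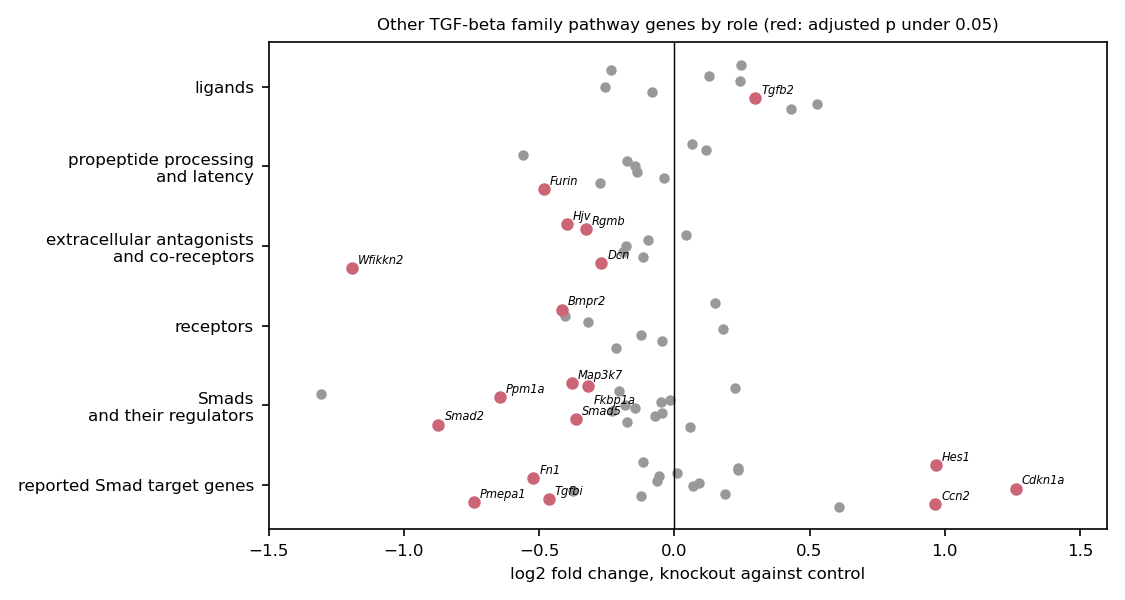
Log2 fold change, knockout against control (horizontal axis), of the 70 tested TGF-beta family genes outside the 10 members, 1 point per gene in 6 rows by role (height within a row has no meaning); red points with names passed the adjusted p threshold. The 5 called Smads and regulators and the 4 called antagonists and co-receptors lie below 0, while the called targets lie on both sides.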

How the data were processed

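For each of the 8 quadriceps libraries 1 table of unnormalised counts by Ensembl gene was deposited, per the file headers. Tools named in the submitters' processing notes are featureCounts, Subread (1.6.2) and Bowtie2 (2.3.4.1); annotation release, strand setting and handling of multiply mapped reads: not given in the sources used here. GENCODE M21 (GRCm38, a build those notes name) supplied gene symbols. Groups came from the genotype labels and replicate numbers from accession order, which pairs no libraries. The members and gene lists were chosen with earlier results of these data known.

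Tests used edgeR 4.0.16 (R 4.3.3): filterByExpr (minimum count 10, minimum total 15), TMM scaling, and a robust quasi-likelihood F test of genotype with Benjamini-Hochberg adjustment across the 10691 genes kept. Standard errors were derived from the F statistic, and 95% intervals from the t distribution. Lone values were tested by exact two-sided permutation. No 2 libraries agreed within sampling noise (chi-square per degree of freedom of 2.33 or more). The procedure was tested on simulated counts. Text names all 10 members, and up to 6 called genes of lowest p per pathway list; genes named outside this rule (Inhba, Tgfbr1, Acvr1c, Id1, Id2, Id3 and Tgif1) were chosen after their values were seen. Alternatives were DESeq2 1.42.0, limma 3.58.1 voom, 3 other scalings, 2 other filters, edgeR without robust estimation, thinning to 4404116 reads, and leaving out each library. Some items are not reported here.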

Additional observations from a re-analysis of the deposited data

How the results depend on the processing

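Gdf11 was called lower in 17 of 17 alternatives (log2 fold change -0.97 to -0.77) and Fstl3 higher in the 16 that tested it (1.14 to 1.35). Apart from the fit with no low-count filter (1.23), these fits kept the filter that Fstl3 passed through the knockout libraries. Their agreement on Fstl3 is therefore not separate support. With at least 5 CPM in 4 libraries the number of members called higher was 0, because Fstl3 was then not tested. Leaving out 1 library gave 1 to 2 members called lower, and the second was Mstn without control 1; over these fits Mstn ranged from -0.49 to -0.34. Acvr2a ranged from -0.33 to 0.05 when 1 library was left out, turning to 0.0509 without control 1; the cause was not tested. Other pathway genes called higher numbered 2 to 3 when 1 library was left out. Calls over all genes ranged from 1307 to 1835 across alternatives, and the median log2 fold change of all genes stayed between -0.03 and 0.01. No paired analysis was possible because the labels give the groups no shared replicate numbers. Depth limits Fst, Fstl3 and Smad7 most, with as few as 3, 6 and 13 reads in a library.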

Other observations

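Among the other pathway genes Tgif1, a repressor that binds Smads, had a log2 fold change of -1.31 (SE 0.45, edgeR adjusted p = 0.0687), the lowest of the 70 tested outside the members, and was not called. Control 4, at 10.5 CPM, stood far above the other controls at 2.74 to 4.74 CPM, and knockout 3, at 3.72 CPM, lay within the control range. All controls reached the level that the low-count filter asks for, whereas knockouts 1 and 4, at 1.05 and 1.49 CPM, did not. Tgif1 thus entered the test through the controls, where it was higher.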
